A study of Mus musculus with 6 samples.

Results

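The subject is the collagen genes in sorted M-MDSCs, the monocytic kind of myeloid-derived suppressor cell, which restrains T cells and gathers in tumour-bearing or inflamed hosts. The genes were taken as the array probes, control spots left out, whose gene name is Col, a number, the letter a and a number and nothing more. That rule gave 63 of 39429 probes and 41 of 31473 genes, each read at its brightest probe. Of the 41 genes, 28 passed the filter on dim probes, which kept 22071 genes of the array. Collagens whose array name follows another pattern lie outside the rule.

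Cells were sorted by FACS from lung or bone marrow of C57BL/6 mice and hybridised to 6 dual-colour arrays, 3 per tissue, labelled as biological replicates. The treated lung and treated bone marrow RNAs came from mice given azacytidine plus entinostat and were labelled with Cy5. Azacytidine inhibits DNA methyltransferases and entinostat inhibits class I histone deacetylases. The mock lung and mock bone marrow RNAs came from mice given the vehicle and were labelled with Cy3 on the same arrays. Each array compares pools of unequal size: 3 to 6 mice gave a treated RNA, while 1 or 2 mice gave a mock RNA. An age of 6 to 8 weeks is labelled for the mock mice. Treated RNA was always Cy5, hence treatment and dye cannot be told apart. The lung arrays share a slide and the bone marrow arrays another, hence slide and tissue cannot be told apart.

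Collagens are trimeric matrix proteins whose chains repeat a glycine-led triplet along the triple helix. Fibrillar collagens (types I, II, III, V, XI) build the tensile fibres of connective tissue, type IV forms the sheet of basement membranes, type VI forms beaded filaments, and fibril-associated collagens (FACITs) such as XII, XIV and XVI coat or bridge fibres. Fibroblasts, smooth muscle, endothelium and epithelium are the usual sources, and sorted monocytic cells are not known as major producers.

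The glycine repeat is visible in the probes themselves. A run of at least 4 GGN codons spaced 9 bases apart, N being any base, was found in 4 of the 63 probes, each 60 bases long. They are shown because they mark the triple-helical part of the coding sequence, with the GGN codons of the run in capitals. The probes lie on the plus strand of build mm9, at chr15:55347733-55347792 (Col14a1, the dimmer of its probes), chr4:129756457-129756516 (Col16a1, not its brightest probe), chr4:47283786-47283845 (Col15a1, its brightest) and chr3:130270497-130270556 (Col25a1, its brightest). Exons and introns were not analysed here.
Col14a1 probe: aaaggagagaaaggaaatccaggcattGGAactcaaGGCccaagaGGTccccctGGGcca
Col16a1 probe: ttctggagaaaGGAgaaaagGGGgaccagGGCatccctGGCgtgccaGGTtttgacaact
Col15a1 probe: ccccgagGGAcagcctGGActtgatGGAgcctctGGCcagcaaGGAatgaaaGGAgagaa
Col25a1 probe: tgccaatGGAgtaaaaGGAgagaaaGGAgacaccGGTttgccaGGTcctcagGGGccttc

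Azacytidine acts on methylation at CpG dinucleotides, so the CpG content of the promoters was read from RefSeq (build GRCm38.p6), which matched 33 of the 41 genes with 36 start sites. In the 250 bases before the start, the collagen windows held a median of 10 CpG, from 0 to 31, against a median of 6 over all 32851 windows. The motif GGGCGG, on either strand, occurred in 21 of the 36 collagen windows (58.3%) and in 32.7% of all windows. CCAAT, on either strand, occurred in 13 (36.1%) and in 33.8% of all windows, and matches of the 2 motifs may share bases. Methylation was not measured in these files. The 4 windows below, chosen after their values were seen, belong to genes whose log ratio differed between the lung arrays in the same order, and their CpG dinucleotides, in capitals, number 21 for Col16a1 (chr4:130047590-130047839, plus strand), 17 for Col5a3 (chr9:20815068-20815317, minus strand), 11 for Col1a2 (chr6:4505368-4505617, plus strand) and 0 for Col3a1 (chr1:45311288-45311537, plus strand).
Col16a1 promoter: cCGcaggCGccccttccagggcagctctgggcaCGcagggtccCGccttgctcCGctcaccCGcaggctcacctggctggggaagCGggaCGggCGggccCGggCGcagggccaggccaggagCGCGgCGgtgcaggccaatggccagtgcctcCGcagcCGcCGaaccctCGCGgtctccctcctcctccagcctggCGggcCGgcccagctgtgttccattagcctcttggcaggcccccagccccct
Col5a3 promoter: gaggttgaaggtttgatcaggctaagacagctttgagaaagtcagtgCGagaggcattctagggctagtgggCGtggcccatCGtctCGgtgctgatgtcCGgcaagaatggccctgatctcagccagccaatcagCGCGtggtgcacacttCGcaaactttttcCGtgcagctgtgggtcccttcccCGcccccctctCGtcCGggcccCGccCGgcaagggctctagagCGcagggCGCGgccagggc
Col1a2 promoter: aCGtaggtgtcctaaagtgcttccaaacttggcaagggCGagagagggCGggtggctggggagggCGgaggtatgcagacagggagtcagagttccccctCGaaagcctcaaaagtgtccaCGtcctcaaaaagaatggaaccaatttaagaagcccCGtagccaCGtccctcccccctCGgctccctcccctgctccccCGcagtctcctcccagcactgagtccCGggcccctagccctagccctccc
Col3a1 promoter: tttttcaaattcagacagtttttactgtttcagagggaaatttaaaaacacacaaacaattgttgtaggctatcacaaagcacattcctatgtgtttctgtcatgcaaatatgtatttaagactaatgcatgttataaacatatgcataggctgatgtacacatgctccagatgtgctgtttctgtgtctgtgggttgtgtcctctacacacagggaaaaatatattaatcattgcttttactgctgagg

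The sorted cells carried their defining markers on every array: 8 of 8 measured monocytic genes, among them Itgam, Csf1r, Ccr2 and Lyz2, were well above background in both channels. The median raw signal of an array lay between 107.1 and 151.8 intensity units in the treated channel and between 71.6 and 100.9 in the mock channel, with no saturated spot. After background correction the negative control spots stood at 240.3 units in the treated channel of bone marrow replicate 1 and 87.0 in that of lung replicate 2, against 13.3 to 16.0 on the other arrays. The constant of 50 added to every signal compresses ratios of dim genes. Markers of other cells were present too, more in lung than in bone marrow. Of 15 fibroblast markers, 15 were well above background on all treated lung arrays and 12 on all mock lung arrays, against 3 and 2 on all treated and all mock bone marrow arrays.

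Values below are log2 ratios of treated over mock (Cy5 over Cy3), in the order replicate 1, 2 and 3, and a positive value means higher in treated cells. The headings of the authors' deposited matrix name the opposite direction, mock over treated, but its values equal Cy5 over Cy3. Errors are the SD over the 3 ratios in a tissue, and adjusted p values come from limma with Benjamini-Hochberg adjustment over all genes tested. Overlap of groups is described gene by gene, often for genes the test picked, and was not counted over all genes. Less RNA per cell and fewer cells of a type cannot be told apart in sorted bulk RNA.

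In treated lung cells Col14a1 was far higher than in mock lung cells, the basement membrane genes Col4a1, Col4a2 and Col4a5 and the dim fibrillar gene Col27a1 were modestly higher, and Col2a1 and Col25a1 were lower. Those 7 of the 28 tested collagen genes (25%) passed the test, 5 higher (17.9%) and 2 lower (7.14%). Over all genes tested the shares were 34% in either direction, 20% higher and 14% lower, so the collagen genes were called no more often than the array at large. Their median log2 ratio in lung was 0.09, against 0.01 over all genes tested. The major fibril genes Col1a1, Col1a2 and Col3a1 did not pass, with a spread between arrays larger than the mean.

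Col14a1 encodes a FACIT of skin, tendon and other tissues rich in type I fibrils. Its level, as log2 normalised intensity, was 11.19, 11.15 and 11.23 in treated lung cells, against 8.89, 9.53 and 9.49 in mock lung cells. The treated values were nearly equal and lay well above all mock values. The log2 ratios of 2.29, 1.62 and 1.74 gave a mean of 1.88 ± 0.36 (SD, n = 3 arrays), a 3.69-fold rise (limma, adjusted p = 8.94e-05). Its probe lies at chr15:55352264-55352323 (mm9, plus strand). The other Col14a1 probe, shown above, moved the same way with a smaller size, at 1.18, 0.51 and 0.72. Across 18 alternative settings the rise stayed past the threshold, between 1.34 and 2.09 on the log2 scale.

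Type IV collagen is the scaffold of basement membranes, and Col4a1 and Col4a2 encode the chains found in nearly all of them. In mouse RefSeq (GRCm38.p6) the genes lie on opposite strands of chromosome 8 and start at positions 11312826 and 11312805, 21 bases apart. Col4a1 stood at 9.21, 9.13 and 9.39 in treated lung cells, against 8.98, 8.67 and 8.35 in mock lung cells. Col4a2 stood at 9.16, 8.95 and 9.09 in treated lung cells, against 8.78, 8.51 and 8.19 in mock lung cells. Both genes were higher in the treated RNA on every lung array, with no overlap between the groups, and most so on replicate 3.

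The log2 ratios were 0.24, 0.46 and 1.04 for Col4a1, a mean of 0.58 ± 0.41 (SD, n = 3 arrays; limma, adjusted p = 0.0147). For Col4a2 they were 0.38, 0.44 and 0.90, a mean of 0.58 ± 0.28 (SD, n = 3 arrays; limma, adjusted p = 0.0053). The fold change was 1.5 for Col4a1 and 1.49 for Col4a2. The call of Col4a1 was lost with the background taken from negative control spots (adjusted p = 0.056), with lung fitted alone (adjusted p = 0.063), with median centring (0.80, adjusted p = 0.106) and with no offset (adjusted p = 0.051). That of Col4a2 was lost with the scanner's processed signals (adjusted p = 0.067), with median centring (0.80, adjusted p = 0.078) and with the negative control background (adjusted p = 0.064). Without lung replicate 3 the ratio was smaller and still called, at 0.35 for Col4a1 (adjusted p = 0.0342) and 0.41 for Col4a2 (adjusted p = 0.0167). Col4a5, a chain of kidney, lung and other specialised basement membranes, stood at 6.92, 6.89 and 6.97 in treated lung cells, against 6.65, 6.71 and 6.63 in mock lung cells, where 2 of 3 arrays were well above background. Its log2 ratios of 0.27, 0.18 and 0.35 averaged 0.27 ± 0.08 (SD, n = 3 arrays; limma, adjusted p = 0.011), and the call was lost without lung replicate 3 (0.23, adjusted p = 0.078). Col4a4 and Col4a6, chains of the same specialised networks, had -0.01, -0.03 and 0.04 (Col4a4) and -0.10, -0.01 and 0.09 (Col4a6) in lung. The other Col4a6 probe, also past the filter, had 0.24, 0.03 and 0.18 there.

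Markers of endothelium, a main source of type IV collagen, moved with the treatment in lung. Of 12 endothelial markers, 11 were higher in treated lung cells, with a median log2 ratio of 0.97, and 0 were lower. Their summed signal was 29395 to 35755 units in treated lung cells, against 12996 to 17493 units in mock lung cells. Lung epithelium markers were higher in 8 and lower in 1 of 12, with sums of 64988 to 97923 units in treated lung cells, against 19934 to 35020 units in mock lung cells. Pecam1 (log2 0.74), Cdh5 (0.98) and Cldn5 (1.51), genes of endothelial junctions, were well above background on all lung arrays in both channels. The part of either marker list in the type IV collagen result was not tested.

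**Figure D1:**
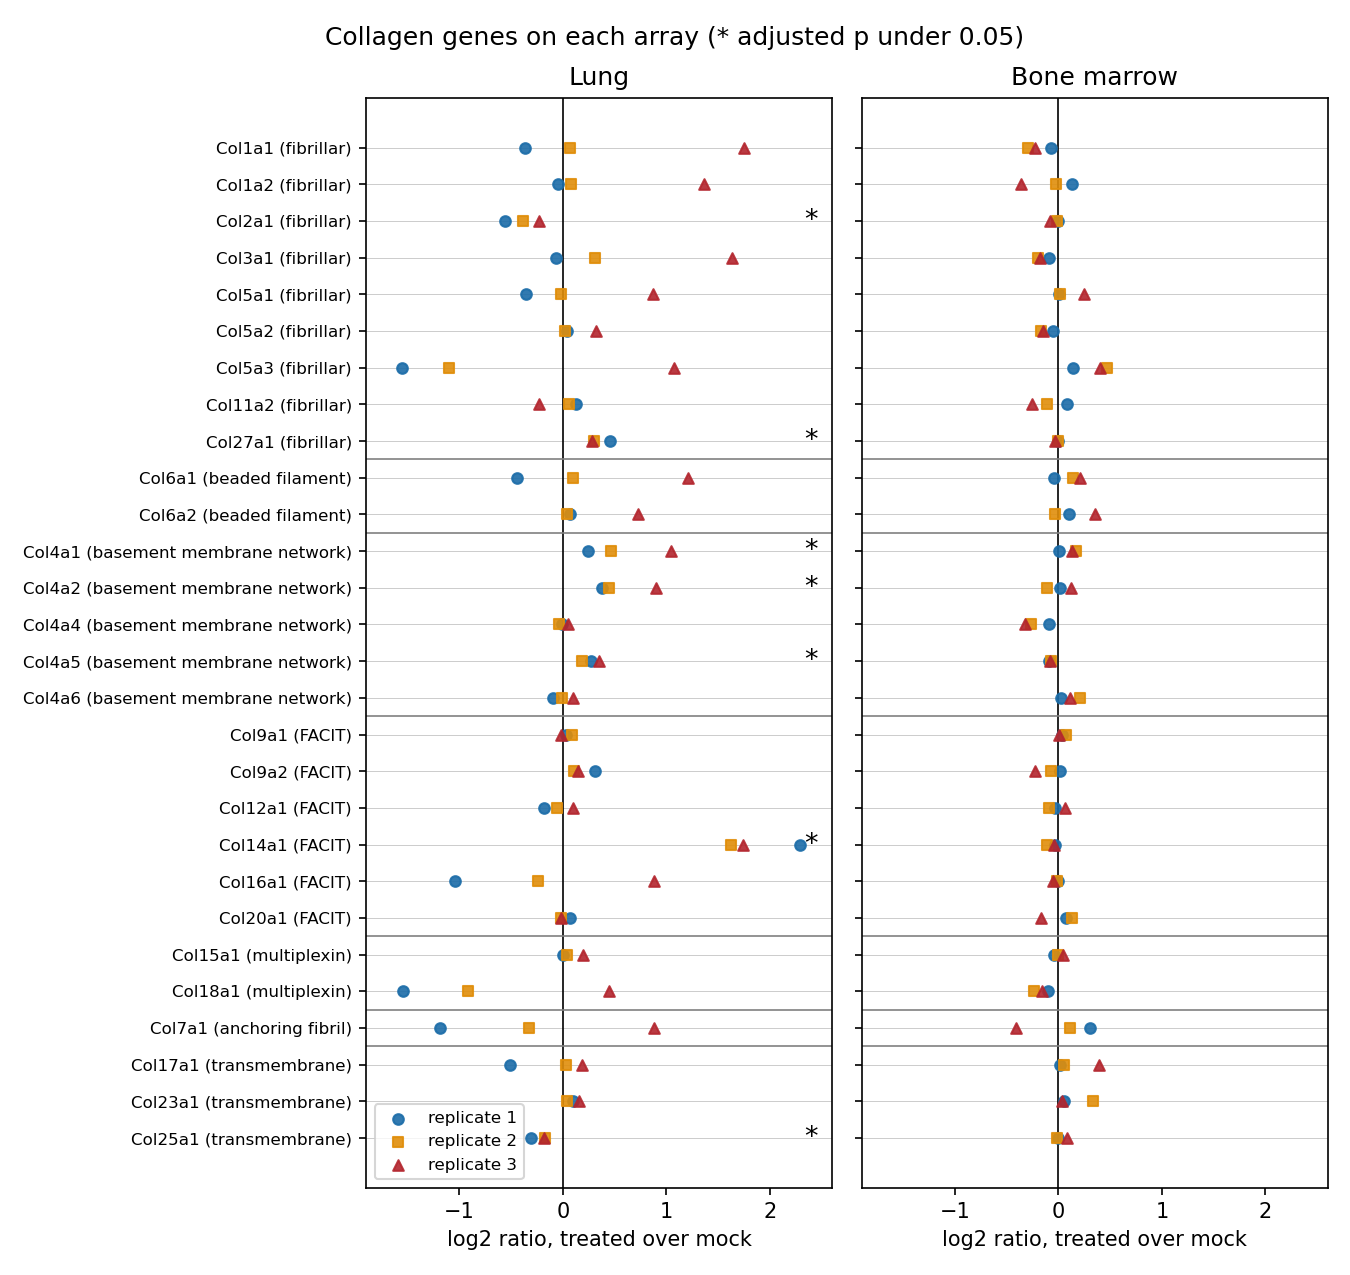
Log2 ratio of treated over mock cells for the 28 collagen genes past the filter, grouped by collagen class, with lung arrays in the left panel and bone marrow arrays in the right one, and 1 symbol per replicate. Stars mark an adjusted p under 0.05. Col14a1 sits between 1.62 and 2.29 in lung, many other genes spread widely there with replicate 3 to the right, and bone marrow values lie between -0.41 and 0.46.

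Several fibrillar, beaded-filament, anchoring and multiplexin genes differed in their ratio between the lung arrays. Col1a1, Col1a2 and Col3a1 encode the chains of type I and type III collagen, the bulk of tissue fibres. The log2 ratios of Col1a1 were -0.36, 0.07 and 1.75, a mean of 0.49 ± 1.12 (SD, n = 3 arrays; limma, adjusted p = 0.316). Those of Col1a2 were -0.05, 0.08 and 1.36, and those of Col3a1 were -0.07, 0.31 and 1.64. All 3 genes were clearly higher in treated cells on replicate 3 alone. Col3a1 passed the test when replicate 1 was left out (0.97, adjusted p = 0.032), whereas Col1a1 and Col1a2 did not pass with any array left out.

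Another 7 genes described here also had their highest ratio on replicate 3. Of all 28 tested collagen genes 21 (75%) did, Col4a1, Col4a2 and Col4a5 among them, against 33.5% of all genes past the filter. Col5a3, a minor chain of type V collagen, which limits fibril diameter, had log2 ratios of -1.56, -1.10 and 1.08. Col18a1, a basement membrane proteoglycan whose C-terminal fragment is endostatin, had -1.55, -0.92 and 0.44. Col7a1, the anchoring fibril collagen beneath epithelia, had -1.19, -0.33 and 0.88. Only replicate 3 was positive for these genes. Col16a1, a FACIT, had -1.04, -0.24 and 0.88 at its brightest probe, and -0.31, 0.04 and 0.35 at its other probe past the filter. Col6a1, a chain of the type VI beaded filament, had -0.44, 0.09 and 1.21, and its partner Col6a2 had 0.07, 0.04 and 0.73, positive on every array. Col5a1, the main chain of type V collagen, had -0.35, -0.02 and 0.87. None of these 7 genes passed the test with all arrays, with adjusted p from 0.133 (Col18a1) to 0.763 (Col16a1).

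Leaving out replicate 3 changed several calls. Without it, Col5a3 was lower in treated lung cells by a log2 ratio of -1.33 (limma, adjusted p = 0.001) and Col18a1 by -1.23 (adjusted p = 0.002). Col16a1 at -0.64 (adjusted p = 0.033) and Col7a1 at -0.76 (adjusted p = 0.049) passed as well. The collagen count without that array was 9 of 28, of which 4 were higher and 5 lower, against 7 with all arrays, and 23.3% of all genes were called without it. No pooled direction is therefore given for these genes.

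The split between arrays lay more in the mock than in the treated RNA. Col5a3 stood at 9.08, 8.11 and 9.08 in treated lung cells, against 10.63, 9.21 and 8.01 in mock lung cells. Col18a1 stood at 8.63, 8.12 and 8.51 in treated lung cells, against 10.18, 9.04 and 8.07 in mock lung cells. Col7a1 stood at 8.98, 8.60 and 9.28 in treated lung cells, against 10.17, 8.93 and 8.40 in mock lung cells. In each case mock replicate 1 was the highest of the 6 values, and mock replicate 3 the lowest.

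Col16a1 stood at 8.90, 8.65 and 9.12 in treated lung cells, against 9.94, 8.89 and 8.23 in mock lung cells. Col6a1 stood at 9.85, 9.53 and 9.94 in treated lung cells, against 10.29, 9.44 and 8.73 in mock lung cells. Col1a1 stood at 9.73, 9.89 and 10.42 in treated lung cells, against 10.09, 9.83 and 8.66 in mock lung cells. Mock replicate 3 was again the lowest value of each gene, and for Col1a1 treated replicate 3 was also the highest. Col1a2 stood at 10.94, 11.00 and 11.44 in treated lung cells, against 10.99, 10.92 and 10.07 in mock lung cells. Col3a1 stood at 10.35, 10.41 and 10.87 in treated lung cells, against 10.41, 10.10 and 9.23 in mock lung cells.

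**Figure D2:**
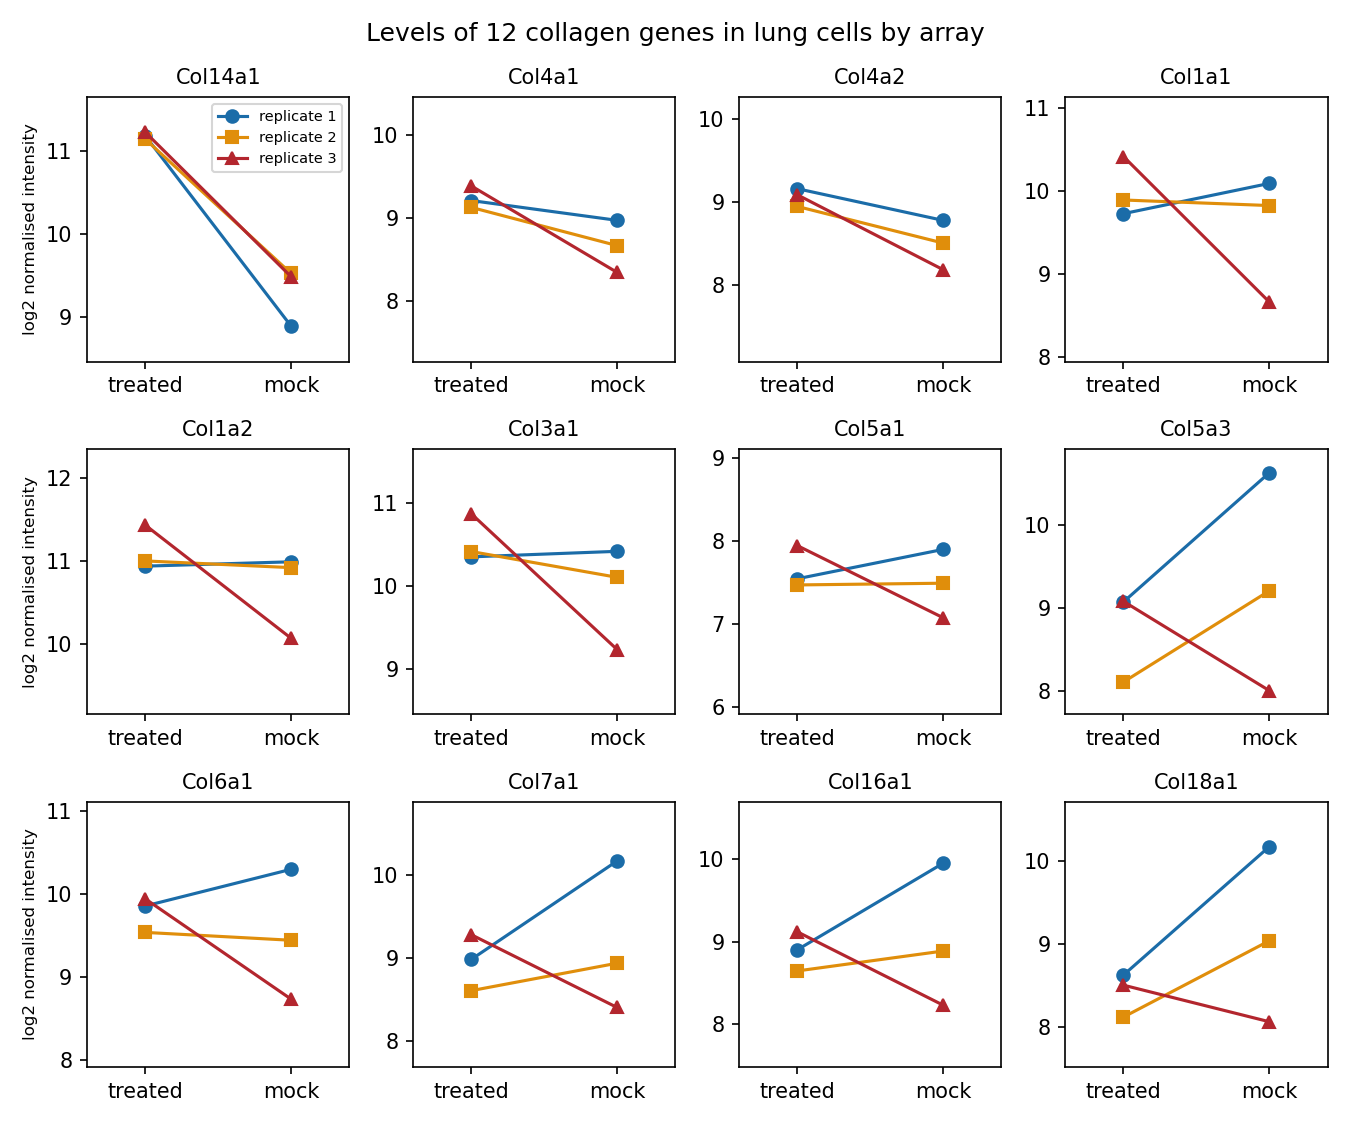
Log2 normalised intensity of 12 collagen genes in lung cells, treated left and mock right in each panel, with a line for each array; every panel spans the same number of log2 units from its own start. Treated points lie closer together than mock points in each panel, though those of Col5a3 are still apart. Mock replicate 3 is lowest in 11 of the 12 panels, with Col14a1 the exception. Most panels hold genes described in the text for this split, so that count is no share of the collagen genes at large.

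The size of this split is given here beside that of the whole array. Among the 28 collagen genes, the standard deviation of the log2 ratio between lung arrays was over 0.5 in 9 (32.1%), against 3.55% of all genes past the filter, and its median was 0.24 against 0.12. Replicate 1 had the lowest and replicate 3 the highest ratio in 16 of the 28 (57.1%), against 22.2% of all genes. Among the 20 collagen genes well above background on all lung arrays in both channels, the median standard deviation of the level was 0.18 in treated and 0.38 in mock lung cells, against 0.10 and 0.09 over all such genes. No test was made of these shares, since genes of 1 RNA are not independent. A mock RNA came from 1 or 2 mice and a treated RNA from 3 to 6, and the part of pool size in the spread was not tested.

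Fibroblast markers, as a list, also had their highest median on replicate 3. This was not particular to them: endothelial markers had medians of 1.05, 0.76 and 1.11 on the lung arrays. Smooth muscle and pericyte markers did not have it, at 0.42, -0.04 and 0.41. Of 15 fibroblast markers, 7 were higher in treated lung cells and 2 lower, and their medians on the 3 lung arrays were 0.15, 0.15 and 0.50, where those of the 28 collagen genes were -0.03, 0.04 and 0.33. Their summed signal was 5470, 4976 and 5650 units in treated lung cells, against 4876, 4733 and 4254 units in mock lung cells. Dcn and Lum, small proteoglycans that bind collagen fibrils, fell by 0.56 and 0.51 on the log2 scale (limma, adjusted p = 0.007 and 0.002), and Mfap4, a microfibril protein, rose by 1.64 (adjusted p = 0.000197). Pdgfrb and Twist2, chosen here after their values were seen, showed the split, with -0.91, -0.15 and 0.57 for Pdgfrb and -1.11, -0.25 and 0.74 for Twist2. They do not stand for the list, whose median was positive on every lung array. How many of the 15 markers showed the split was not counted. Smooth muscle and pericyte markers were higher in 3 of 9 and lower in 0. The part of these cells in the collagen ratios was not tested.

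The remaining calls in lung concerned dim genes. Col27a1, a short fibrillar collagen of cartilage, stood at 7.03, 6.93 and 6.96 in treated lung cells, against 6.57, 6.63 and 6.67 in mock lung cells, where 1 of 3 arrays was well above background. Its log2 ratios of 0.46, 0.30 and 0.28 averaged 0.35 ± 0.10 (SD, n = 3 arrays; limma, adjusted p = 0.0042), and 1.43 with the scanner's processed signals. The call was lost with median centring (0.37, adjusted p = 0.296). Treated values lay above all mock values. Col2a1, the main cartilage fibril collagen, stood at 6.54, 6.59 and 6.56 in treated lung cells, against 7.10, 6.98 and 6.79 in mock lung cells. Its log2 ratios of -0.56, -0.39 and -0.23 averaged -0.39 ± 0.17 (SD, n = 3 arrays; limma, adjusted p = 0.0057), and -1.25 with processed signals. Median centring lost this call too (-0.40, adjusted p = 0.239). Of 8 cartilage markers, 3 were well above background on all lung arrays in each channel, and 4, among them Matn1, Matn3 and Hapln1, on no lung array; their part was not tested. Col25a1, a transmembrane collagen found in neurons, had -0.31, -0.17 and -0.18 (mean -0.22 ± 0.08, SD, n = 3 arrays; limma, adjusted p = 0.0247). Its call was lost in 8 of 17 alternatives, and its other probe past the filter averaged 0.01.

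The other tested genes did not pass in lung. Among the FACITs, Col9a2, a cartilage collagen, had 0.31, 0.10 and 0.14 (limma, adjusted p = 0.084; 0.49 with processed signals, adjusted p = 0.034, and 0.42 with the negative control background, adjusted p = 0.048), and Col12a1 had -0.19, -0.06 and 0.10. Col9a1 and Col20a1 averaged 0.03 and 0.01. Col15a1, a multiplexin of basement membrane zones, had 0.00, 0.03 and 0.19, and Col11a2, a cartilage fibril chain, had 0.12, 0.06 and -0.23. Col17a1, the hemidesmosome collagen, had -0.51, 0.03 and 0.18. The averages of Col5a2 and Col23a1 were 0.13 and 0.10.

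The 13 collagen genes that did not pass the filter were Col4a3, Col6a4, Col6a6, Col8a1, Col8a2, Col9a3, Col10a1, Col11a1, Col13a1, Col19a1, Col22a1, Col24a1 and Col28a1. Of these, 9 were not well above background on any array in either channel, and the other 4 were so on a single array. They include both chains of type VIII collagen, a product of vascular cells, and Col10a1, the collagen of hypertrophic cartilage.

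In bone marrow cells no collagen gene passed the test. With 0 of 28 called by limma, against 14.4% of all genes tested (7.26% higher, 7.13% lower), 1 collagen gene had an unadjusted p under 0.05, and other settings called 0, 1 or 9. Collagen RNA was mostly at background there: 9 of 41 genes were well above it on all treated bone marrow arrays and 7 on all mock bone marrow arrays, against 25 and 21 in treated and mock lung cells. Over all genes of the array the shares were 53% and 48.3% in treated and mock bone marrow cells, against 64.2% and 58.2% in treated and mock lung cells. The median log2 ratio of the 28 genes was -0.01, against 0.02 over all genes.

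Some genes crossed the background in bone marrow. Col1a1 was well above background on 0 of 3 treated and on 3 of 3 mock bone marrow arrays, at 6.85, 6.58 and 6.62 in treated cells, against 6.92, 6.88 and 6.86 in mock cells. It did not pass the test (limma, adjusted p = 0.727). Col5a3 was well above background on 3 of 3 treated and 0 of 3 mock bone marrow arrays, at 6.66, 6.96 and 7.31 in treated cells, against 6.52, 6.50 and 6.90 in mock cells. It did not pass either (limma, adjusted p = 0.624).

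These dim ratios depended on how the background was removed. The scanner's processed signals put Col1a1 lower on every bone marrow array (mean -1.83 ± 0.27, SD, n = 3 arrays; limma, adjusted p = 0.019). Under the setting reported above its ratios were -0.07, -0.30 and -0.23. For Col5a3 the processed signals gave 2.73, 2.95 and 2.66 (mean 2.78 ± 0.15, SD, n = 3 arrays; limma, adjusted p = 0.011), against 0.14, 0.46 and 0.41. The direction was the same on every array in both settings, and the size was not.

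Processed signals called 9 collagen genes in bone marrow, 3 higher and 6 lower, as did the background from negative control spots, with 5 higher and 4 lower. Over all genes tested these settings called 29.3% and 29.9%. Col18a1 was lower in both, at -2.20 (adjusted p = 0.009) and -1.49 (adjusted p = 0.029), as was Col4a4 at -1.13 and -0.88 (adjusted p = 0.003 each). Col5a3 and Col6a2 were higher in both. Col3a1 was lower with processed signals, at -1.62 (adjusted p = 0.018). The largest mean ratios in bone marrow under the reported setting were 0.34 for Col5a3 and -0.23 for Col4a4.

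The test of the difference in response called 4 of the 28 collagen genes (14.3%), all higher in lung than in bone marrow. Of all genes tested, 15.3% were called (9.8% higher, 5.46% lower). The difference, lung minus bone marrow, was 1.95 for Col14a1 (SE 0.17; limma, adjusted p = 0.0011). In bone marrow Col14a1 had log2 ratios of -0.03, -0.11 and -0.04 at its brightest probe, which was not well above background there in either channel. Its other probe was well above background on all bone marrow arrays in both channels and averaged -0.13 ± 0.12 (SD, n = 3 arrays). Col4a2 differed by 0.57 (SE 0.15, adjusted p = 0.0428), Col27a1 by 0.36 (SE 0.09, adjusted p = 0.0317) and Col4a5 by 0.35 (SE 0.08, adjusted p = 0.0315). None of these 3 was well above background on a bone marrow array, so a response there could not be measured. Each lost its call when at least 5 of the single arrays were left out in turn. The median difference over the 28 genes was 0.08, against -0.000183 over all genes. Without lung replicate 3, Col5a3 (-1.66, adjusted p = 0.003) and Col18a1 (-1.07, adjusted p = 0.016) were called lower in lung than in bone marrow.

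Mock cells of the 2 tissues differed in collagen RNA. Of 28 genes, 19 passed the test (67.9%), 16 higher (57.1%) and 3 lower in mock lung than in mock bone marrow cells, against 66% of all genes tested, of which 29.6% were higher and 36.3% lower. The median log2 difference was 0.44, against -0.04 over all genes. The filter admitted 16 of the 28 through lung alone, 0 through bone marrow alone and 12 through both, and a gene admitted through lung alone could hardly be anything but higher there. Of the 12 admitted through both tissues, 6 were higher and 3 lower in mock lung cells.

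**Figure D3:**
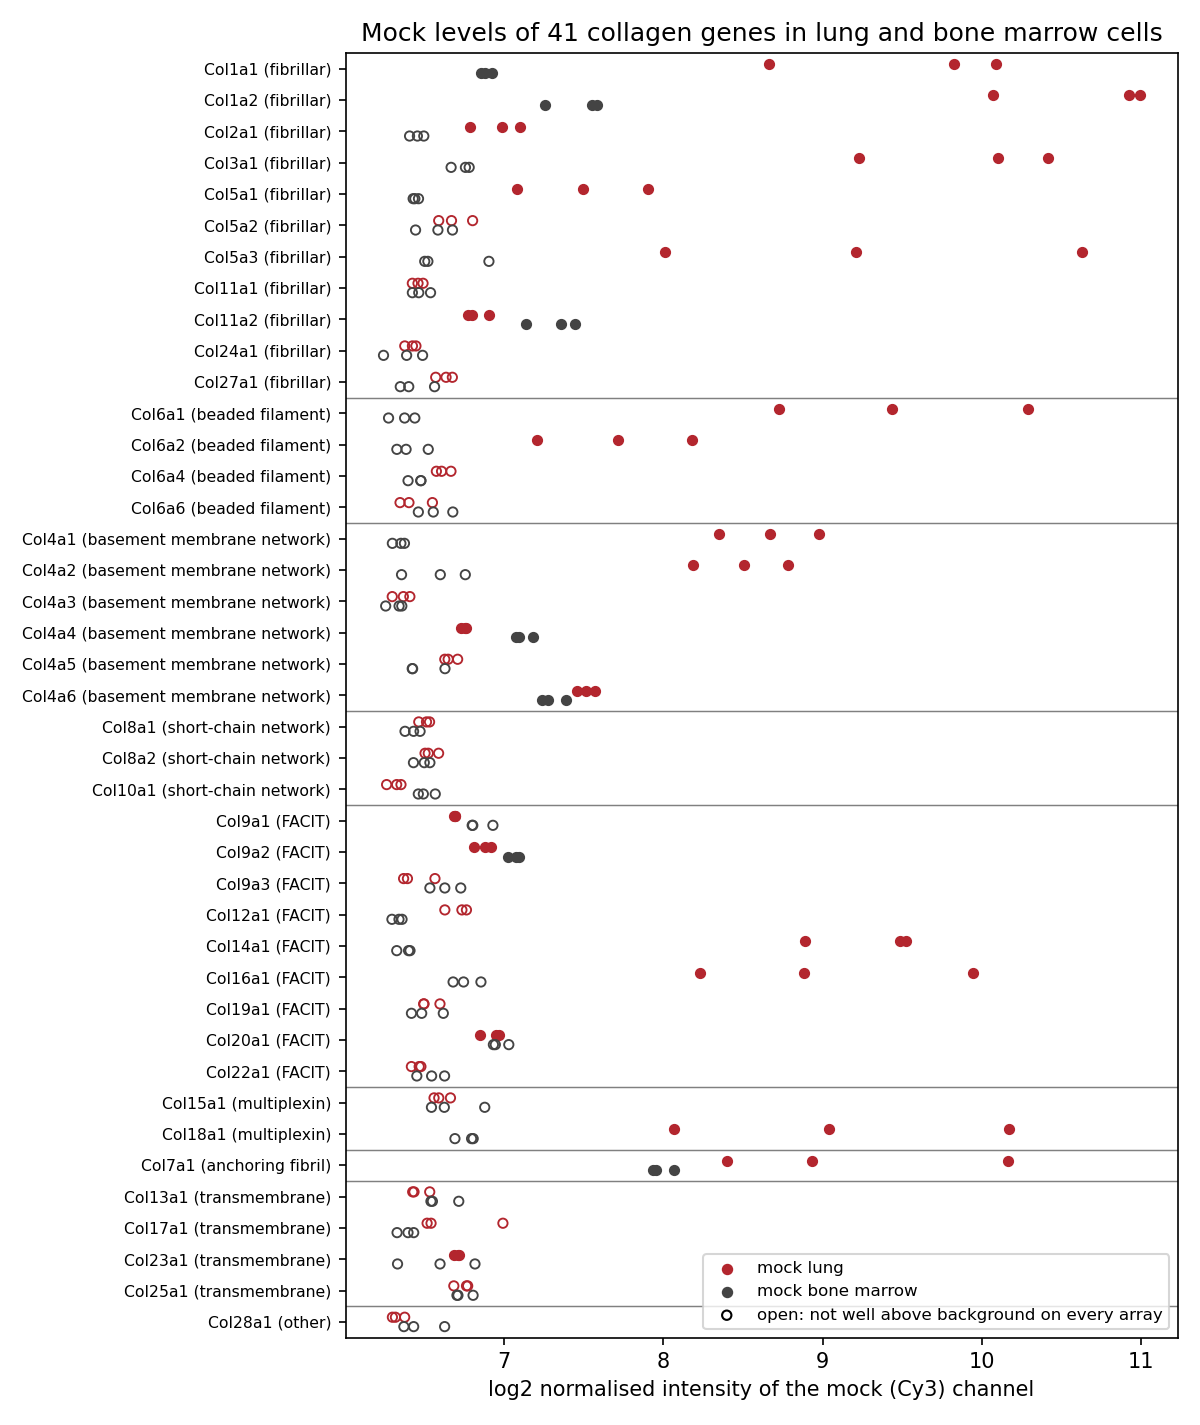
Log2 normalised intensity of the mock (Cy3) channel for all 41 collagen genes, with mock lung arrays above mock bone marrow arrays in each row and 1 circle per array; open circles belong to a group not well above background on every array. Col1a1, Col1a2, Col3a1, Col14a1 and others lie far to the right in lung, and most bone marrow circles are open and near the left edge.

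The major fibril genes were higher in mock lung cells. Col1a2 had 10.99, 10.92 and 10.07 in mock lung cells, against 7.58, 7.55 and 7.25 in mock bone marrow cells, a 9.20-fold difference (limma, adjusted p = 1.21e-05). Col3a1 had 10.41, 10.10 and 9.23 in mock lung cells, against 6.78, 6.76 and 6.67 in mock bone marrow cells, where 1 of 3 arrays was well above background. Col1a1 had 10.09, 9.83 and 8.66 in mock lung cells, against 6.92, 6.88 and 6.86 in mock bone marrow cells. The lung values of these genes lay above all bone marrow values, and mock bone marrow cells had a measured level of Col1a1 and Col1a2 on every array.

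For probes not well above background on any mock bone marrow array only a bound can be given. Such bounds set the mean in mock lung cells against, per array, the higher of the dim probe's own signal and the lowest signal well above background. Col6a1 was at least 8.44-fold higher in mock lung cells, and Col14a1 at least 7.27-fold at its brightest probe, its other probe being well above background in bone marrow. The bound was 6.23-fold for Col5a3, 4.76-fold for Col4a1 and 3.80-fold for Col4a2, and 2.45-fold for Col6a2. Smaller bounds held for Col5a1 (2.03-fold), Col2a1 (1.38-fold) and Col12a1 (1.25-fold). At these probes Col6a1 stood at 6.44, 6.37 and 6.27 in mock bone marrow cells and Col14a1 at 6.40, 6.32 and 6.41. Col4a1 had 6.37, 6.30 and 6.35 there, Col4a2 6.60, 6.75 and 6.35, and Col2a1 6.49, 6.40 and 6.45. All lay below every mock lung value of the same gene given above. Col12a1 had 6.76, 6.73 and 6.63 in mock lung cells, against 6.29, 6.36 and 6.34 in mock bone marrow cells. Levels of Col6a2 were 8.18, 7.71 and 7.21 in mock lung cells, against 6.38, 6.52 and 6.32 in mock bone marrow cells. Those of Col5a1 were 7.90, 7.49 and 7.08 in mock lung cells, against 6.46, 6.43 and 6.44 in mock bone marrow cells.

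Other genes were well above background on at least 1 mock bone marrow array. Col16a1 had a log2 difference of 2.26 (limma, adjusted p = 0.00089), with 6.85, 6.68 and 6.74 in mock bone marrow cells, where 2 of 3 arrays were well above background. Col18a1 had 6.80, 6.69 and 6.79 there, with 1 of 3 arrays well above background. Col7a1 differed by 1.18 (adjusted p = 0.0254, lost in 4 of 17 alternatives), from the lung values above against 7.94, 8.07 and 7.96 in mock bone marrow cells, the groups still apart. Col4a6 had 7.51, 7.57 and 7.46 in mock lung cells, against 7.39, 7.28 and 7.23 in mock bone marrow cells (adjusted p = 0.0318, lost in 9 of 17 alternatives).

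Col11a2 had 6.80, 6.77 and 6.90 in mock lung cells, against 7.14, 7.35 and 7.44 in mock bone marrow cells (log2 difference -0.49; limma, adjusted p = 0.0023). Col4a4 had 6.73, 6.75 and 6.76 in mock lung cells, against 7.18, 7.09 and 7.07 in mock bone marrow cells (-0.37, adjusted p = 0.0016). Col9a2 had 6.92, 6.88 and 6.81 in mock lung cells, against 7.03, 7.08 and 7.09 in mock bone marrow cells (-0.20, adjusted p = 0.0323, lost in 7 of 17 alternatives). The groups did not overlap for any of the 3, which the test had picked on the same values. Marker lists moved with the tissue as well: 13 of 15 fibroblast, 9 of 9 smooth muscle and pericyte, 10 of 12 endothelial and 11 of 12 epithelial markers were higher in mock lung cells, and 0 were lower. In that order 12 of 15, 7 of 9, 7 of 12 and 8 of 12 were well above background on no mock bone marrow array. Such markers, once past the filter through lung, could hardly be anything but higher there. Fibroblast markers summed to 4254 to 4876 units in mock lung cells, against 1554 to 1613 units in mock bone marrow cells, where most of these probes were at background. Their part in the collagen difference was not tested.

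Genes that make and mature collagen were read as lists, beside the 34% of all genes called in lung (20% higher, 14% lower) and the 14.4% called in bone marrow. Of 22 biosynthesis genes, 11 were higher and 1 lower in treated lung cells, with a median of 0.23, and 2 were higher and 1 lower in treated bone marrow cells. Fkbp14, a folding enzyme of the endoplasmic reticulum, rose by 1.16 on the log2 scale (limma, adjusted p = 8.1e-05). Creb3l1, a transcription factor of collagen secretion, rose by 0.63 in lung (adjusted p = 0.000843) and by 0.40 in bone marrow (adjusted p = 0.015). P3h2 and P4ha1, proline hydroxylases, rose by 0.57 and 0.61 in lung. Plod3, a lysine hydroxylase, fell by 0.37 in lung (adjusted p = 0.0077) and by 0.88 in bone marrow (adjusted p = 0.0015). Serpinh1, the collagen chaperone, chosen after its values were seen, had the split of the fibril genes, at -1.01, -0.35 and 0.95.

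Processing and cross-linking genes were higher in 5 and lower in 0 of 12 in lung, and 0 of 12 passed in bone marrow (limma). Loxl1, a lysyl oxidase, rose by 0.82 and Pcolce2, an enhancer of procollagen processing, by 0.79 in lung. Loxl3 and Adamts2, the procollagen N-proteinase, rose by 0.49 and 0.80. Degradation genes were read in 1 list with the metalloproteinase inhibitors Timp1, Timp2 and Timp3. That list was higher in 6 and lower in 0 of 10 in lung, with a median of 0.77. Mmp13, an interstitial collagenase, rose by 2.74 ± 0.11 (SD, n = 3 arrays; limma, adjusted p = 3.51e-06), with 2.64, 2.87 and 2.72 on the 3 arrays. The inhibitors Timp2 and Timp3 rose by 1.77 and 1.19, and the proteinase Mmp9 by 1.76. None of the 10 passed in bone marrow (limma).

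Genes listed here as collagen receptors were higher in 3 and lower in 0 of 11 in lung, a share below that of all genes called there. Mrc1, the macrophage mannose receptor, which also binds collagen, rose by 2.78, Cd93 by 1.18 and Itga10 by 0.22. In bone marrow 2 genes of the list were higher, Cd93 by 0.69 and Itga1 by 0.52, and Itgb1 fell by 0.41 on the log2 scale. Whether Cd93 acts as a collagen receptor was not tested, and the counts include it. Macrophage markers, a list that holds Mrc1 itself, were higher in 10 and lower in 0 of 11 in lung. With Mrc1 included, they summed to 82363 to 109205 units in treated and 19079 to 27898 units in mock lung cells. The part of macrophages in the Mrc1 change was not tested.

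Partners of collagen in the matrix were read in the same way. Basement membrane partners were higher in 7 and lower in 0 of 19 in lung, led by the laminin chains Lamb3 (0.48), Lama2 (0.54) and Lama4 (0.55) and by Nid2, a nidogen (0.71). The medians of this list on the lung arrays were 0.13, 0.22 and 0.64. Its summed signal was 8594, 7490 and 9336 units in treated lung cells, against 12134, 7102 and 5327 units in mock lung cells, so on replicate 1 the treated sum was the lower one. Fibrillar matrix partners were higher in 6 and lower in 3 of 15. Ccn2, a matricellular growth regulator, rose by 1.08, Sparc, a collagen-binding glycoprotein, by 0.81, and Fbn1, the microfibril protein, by 0.72. In bone marrow 0 of 19 basement membrane partners passed (limma), and 1 of 15 fibrillar partners was higher.

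**Figure D4:**
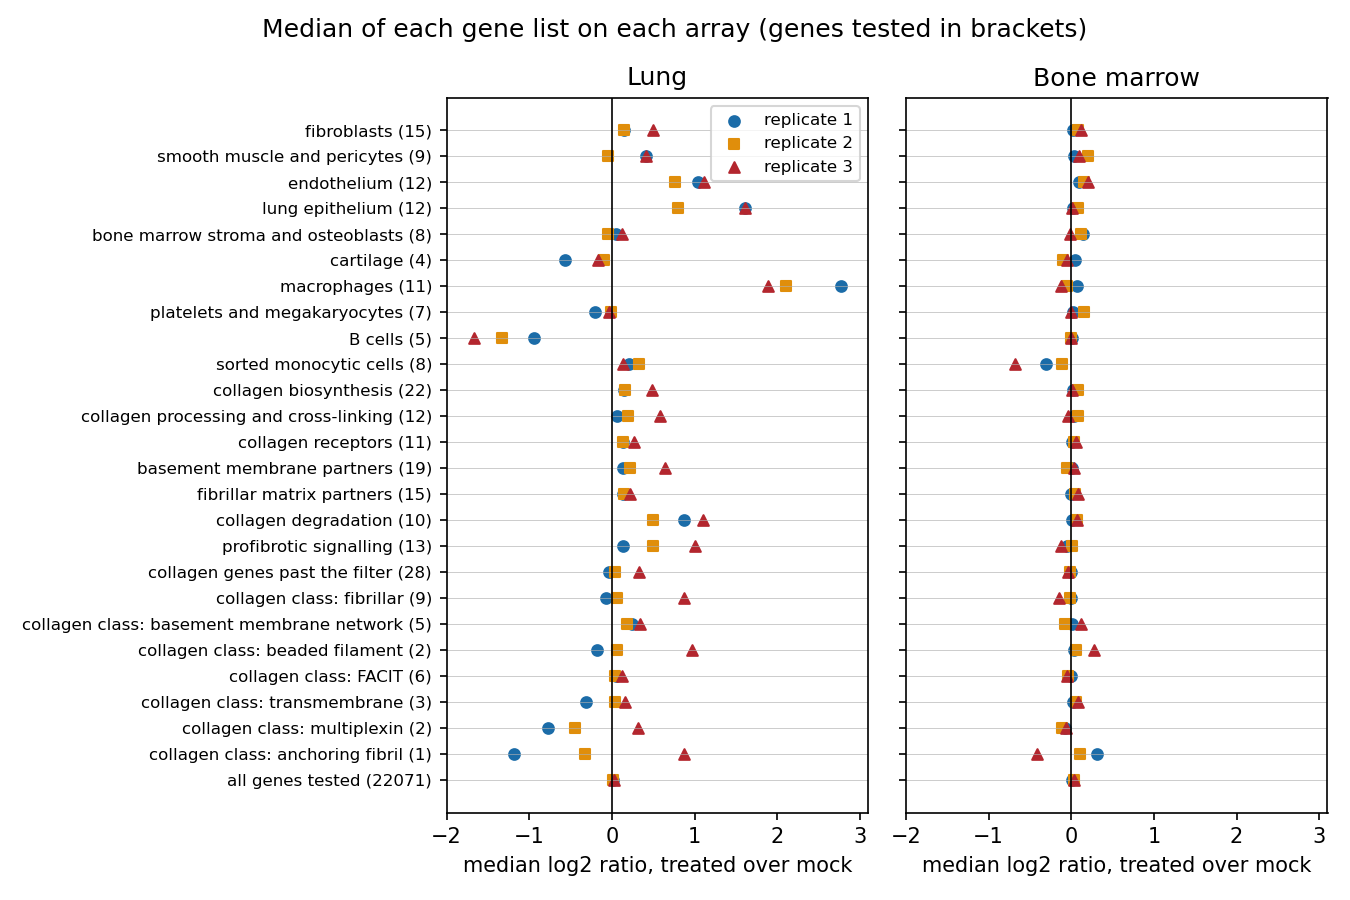
Median log2 ratio of treated over mock for each gene list and collagen class on each array, lung left and bone marrow right, with the number of genes tested in brackets and 1 symbol per replicate. Fibrillar collagens stand at -0.07, 0.06 and 0.87 on the lung arrays, endothelial and epithelial markers are positive on all 3, and bone marrow medians of the collagen classes lie between -0.41 and 0.31.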

How the data were processed

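M-MDSC RNA was read on 6 dual-colour Agilent arrays. The scanner output, made with Agilent Feature Extraction per the file headers, gives intensity values, other columns with flags for background, saturation and outliers, and mm9 positions. The same deposited files give processed signals and their log10 ratio. An alternative took the log2 ratio of the processed Cy5 and Cy3 signals, centred on each array's median over spots other than controls. The authors' deposited matrix holds log2 ratios made with limma, per the submitters' processing notes. Its values equal Cy5 over Cy3 computed from median signals (r from 0.9995 to 1.000 over 43173 spots), and its headings name the reverse.

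Mean signals and median local backgrounds were corrected by normexp (offset 50) and loess in limma 3.58.1 (R 4.3.3), with control spots at weight 0 and outlier spots left out. Spots of a probe were averaged, and each gene was read at its brightest probe. A gene passed the filter if 2 arrays of any of the 4 combinations of tissue and channel were well above background. Names were updated through RefSeq for 26581 probes by accession, 2597 by symbol and 492 by synonym; 9759 kept the file's name. A single limma fit over the 6 arrays gave each tissue its mean log2 ratio, with moderated variances (residual degrees of freedom 4, prior 3.52), and mock levels were fitted on Cy3 after Aquantile. The threshold was an adjusted p of 0.05, two-sided. The fit was tested on simulated data. The number of arrays limits the precision. Values on every array are given for each collagen gene called in any comparison and for 10 collagens whatever their call; of other lists, up to 4 genes with the smallest p. The members and lists were chosen with earlier results of these data known. Alternatives varied background, normalization, signal, filter, outliers, probe choice, samples in the fit, replicate block and arrays left out.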

Additional observations from a re-analysis of the deposited data

Results flagged for a closer look

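By limma's test of the difference in response between lung and bone marrow, 4 of 28 collagen genes were called, against 15.3% of all genes tested. For Col14a1 it was 1.95 on the log2 scale (SE 0.17, adjusted p = 0.0011), higher on 3 of 3 lung arrays than on any bone marrow array. For Col4a2 it was 0.57 (SE 0.15, adjusted p = 0.0428), with lung ratios of 0.38, 0.44 and 0.90 against bone marrow ratios of 0.01, -0.11 and 0.12. For Col27a1 it was 0.36 (SE 0.09, adjusted p = 0.0317), with 0.46, 0.30 and 0.28 in lung against 0.00, -0.01 and -0.03 in bone marrow. For Col4a5 it was 0.35 (SE 0.08, adjusted p = 0.0315), with 0.27, 0.18 and 0.35 in lung against -0.09, -0.07 and -0.08 in bone marrow. With single arrays left out in turn, the call was lost in 5 of 6 cases for Col4a2 and in all 6 for Col27a1 and Col4a5. None of the 4 brightest probes was well above background on a bone marrow array, so these probes could not measure a response there.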

How the results depend on the processing

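Of 1606 recomputed gene values, 1494 kept their side of the threshold, 69 lost their call and 43 gained a call. No called value changed sign, but 84 values that were called in neither setting did, over 36 results. For the collagen genes called in bone marrow (0), processed signals and the negative control background gave 9 each and scaling between arrays gave 1. In lung (7), median centring gave 1. For the difference between tissues (4), processed signals gave 9, the negative control background 8 and median centring 0 (6 at an unadjusted p under 0.05). Leaving out each array gave 0 to 0 in bone marrow, 6 to 9 in lung, 1 to 4 for the difference and 16 to 18 of 19 for mock cells, where 15 to 25 were called over the other alternatives. Over all genes, bone marrow calls (3175) became 6472 with processed signals, 6597 with the negative control background, 1657 with no offset and 0 with median centring (3937 at an unadjusted p under 0.05), and 995 to 4073 with an array left out. Lung calls (7512) became 964, difference calls (3368) became 33 and mock calls (14557) became 8093 with median centring; difference calls became 1554 with no offset and 1507 to 2848 with an array left out. Of the lung calls 4412 were higher, against 4717 of 6472 with processed signals and 891 of 964 with median centring; of the difference calls 2162 were higher, against 1778 of 3807 with the negative control background and 28 of 33 with median centring. Median centring moved the median of all genes to 0.20 in bone marrow and 0.12 in lung, and processed signals to 0.12 in lung. The cause was not tested. Same-numbered arrays of the tissues correlated at 0.00, 0.12 and 0.05, and not every array correlated best with its own number. Such weak correlations cannot show whether the numbers pair the arrays. With the replicate block the counts were 0, 8, 2 and 17. Ratios of dim genes are compressed under the reported setting.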

Other observations

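Genes of transforming growth factor beta and platelet-derived growth factor signalling, which drive collagen expression in fibroblasts, were read as a list of 13. In treated lung cells 6 were higher and 1 lower, with a median log2 ratio of 0.61. Over all genes tested, 20% were higher and 14% lower there. In treated bone marrow cells 0 were higher and 2 lower, beside 7.26% higher and 7.13% lower over all genes tested. Tgfbr1, a receptor kinase, rose by 1.43 ± 0.18 in lung (SD, n = 3 arrays; limma, adjusted p = 7.42e-05) and fell by 0.32 in bone marrow (adjusted p = 0.045). Pdgfb, a growth factor for mesenchymal cells, rose by 1.43 ± 0.09 in lung, and Tgfb3 by 0.89. Smad2, which carries the receptor signal to the nucleus, fell by 0.43 in lung and by 0.32 in bone marrow. Among matrix genes chosen after their values were seen, Pxdn, a basement membrane peroxidase, had log2 ratios of -1.13, 0.05 and 1.51 on the lung arrays, and Ddr2, a receptor of fibrillar collagen, had -1.33, -0.38 and 0.81.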
